A study of Mus musculus with 12 samples.

Results

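The transcriptome of the normal cochlea at postnatal day (P)6 was described from the 6 control libraries among the 12 libraries of the study, 1 library per mouse. RNA-seq estimates the RNA of each gene from the number of sequencing reads that fall on it. The controls are *Sox2*+/+ littermates of *Sox2*CreER/+ *Jag1*fl/fl mutants, with strain C57BL/6;129SV on the labels, although the study's methods name C57bl6/J and FVB/n backgrounds for the parental lines. They carry no CreER allele but, by the matings described, 1 or 2 floxed *Jag1* alleles, and which mouse carries which is not given in the sources used here. All pups, the controls included, received tamoxifen at P0 and P1. The mutant libraries entered no fit and no comparison was made with them. The mice are named control 1 to control 6 by the replicate number on the labels. Litter and sequencing batch of each mouse are not given in the sources used here, so p-values measure only the spread between these 6 libraries, which may be partly technical.

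The cochlea converts sound into nerve signals. Inner hair cells signal sound to spiral ganglion neurons, outer hair cells amplify it, and supporting cells surround both in the organ of Corti, beneath a tectorial membrane of collagens and tectorins. Around this epithelium lie the stria vascularis, which secretes the potassium-rich endolymph, fibrocytes, myelinating Schwann cells, the bony capsule, vessels and macrophages. At P6 the mouse cannot yet hear, and the cells of the greater epithelial ridge, beside the inner hair cells, still line the tectorial membrane that they secrete.

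Total counts ranged from 28498549 to 34430252 per mouse with a median of 33715640, so counting error is small for all but weakly expressed genes. Of 28686 gene symbols, 27837 had a count in at least 1 control and 18226 reached a mean count of 5. The 15 pairs of libraries differed by more than counting error, with a chi-square per degree of freedom of 15.7 to 41.4, so no pair was counted as 1 library. Pairs correlated across genes at 0.990 to 0.995 in log2(CPM + 1), where CPM is counts scaled to a common library size. 3 libraries stood apart in ways used below. Control 4 had the lowest summed levels of Schwann cell, strial and melanocyte genes. Control 6 had the highest summed levels of bone, osteoclast, neutrophil and red cell genes. Control 3 had the lowest mitochondrial share of counts, 1.76% against 2.23% to 2.66% in the other 5. In controls 4 and 5, genes with an exon length over 6 kb were lower (median log2 deviation from the 6-mouse mean -0.08 in each) and genes under 1 kb were higher (0.13 and 0.11) than in the other 4 mice (0.03 to 0.07 and -0.10 to -0.02).

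The libraries held RNA of more tissues than the sensory epithelium. GEO's design text names the tissue as the cochlear sensory epithelium and the sample labels name it as cochlea. Markers of hair cells and supporting cells were present, but fibrocyte, cartilage, strial, melanocyte, neuronal, Schwann cell, bone, vessel, macrophage and red cell markers were present too, so the values below describe the dissected tissue as a whole. In such bulk samples fewer cells of a type and less RNA per cell cannot be told apart.

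A mean of at least 1 TPM (counts corrected for gene length and for depth, on a scale with the same total in each library) was reached by 15942 genes, of which 13947 were nuclear and protein-coding, among 17930 such genes with a known length. At least 10 TPM was reached by 10369 genes, at least 100 TPM by 1699 and at least 1000 TPM by 86. The 10 genes with most counts held 6.86% to 8.16% of a library, and the 1000 genes with most counts 46.3% to 48.8%. Mitochondrial genes held 7.49% of the TPM, and the 20 highest nuclear protein-coding genes 11.0%.

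The nuclear protein-coding gene with the highest mean level was *Otor*, on chromosome 2, which encodes otoraplin, a small secreted protein of the cochlear mesenchyme. Its lowest, median and highest levels were 14159.7, 15309.5 and 19327 TPM, and it ranked first among nuclear protein-coding genes in each of the 6 mice. The size of this lead depends on the length used. With the longest transcript as the length, *Otor* averaged 12147 TPM and *Col2a1*, next in the main ranking, 11803 TPM. Ranks in each mouse were not made with that length. Control 4 held the highest *Otor* level and the other 5 mice lay between 14159.7 and 15429 TPM. The exon length of *Otor* is 949 bases, and genes under 1 kb were higher on the median in controls 4 and 5. The part of length in the *Otor* values was not tested. Cartilage and tectorial membrane collagens filled 5 of the 20 highest places. *Col2a1* ranged from 6973 to 9877 TPM (mean 8446 ± 1062, SD, n = 6). *Col9a1*, *Col9a2* and *Col9a3*, the chains of type IX collagen, averaged 5407 ± 501, 4932 ± 702 and 3542 ± 352 TPM (SD, n = 6), and *Col11a2* 3283 ± 401 TPM (SD, n = 6). *Col2a1* took rank 2 to rank 7 depending on the mouse, so its place relative to *Eef1a1*, *Sparc* and *Ptgds* did not hold in each mouse.

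The other places were held by matrix, secreted and translation genes. *Sparc* and *Sparcl1*, related secreted matrix glycoproteins, ranged from 6745 to 8566 TPM and from 4891 to 7973 TPM. *Ptgds*, a prostaglandin D synthase, ranged from 5495 to 8182 TPM and was lowest in control 4. *Car3*, carbonic anhydrase III, ranged from 5799 to 7625 TPM. The extracellular matrix of the tectorial membrane and ridge was represented by *Tectb*, which encodes beta-tectorin (3188 to 4154 TPM), and *Epyc*, the proteoglycan epiphycan (3157 to 4081 TPM). *Ptn*, *Clu*, *Igfbp5*, *Itm2b* and *1500015O10Rik* had mean levels of 3829, 3362, 2825, 3013 and 3039 TPM. *Eef1a1* and *Eef2*, elongation factors of protein synthesis, varied least with *Igfbp5* among the 20, with biological CVs of 5.38%, 6.17% and 4.61%. *Rplp1*, a ribosomal stalk protein, averaged 5446 ± 436 TPM (SD, n = 6).

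**Figure D1:**
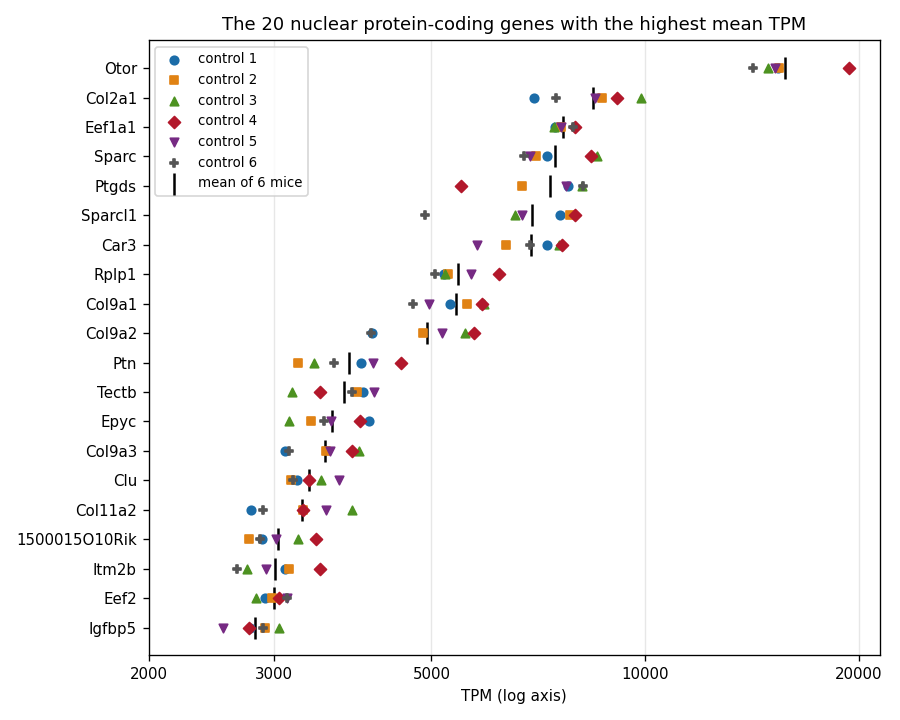
TPM on a log axis of the 20 nuclear protein-coding genes with the highest mean TPM, each symbol 1 control mouse and each bar the mean of the 6 mice. *Otor* lies above the other 19 genes in each mouse, and control 4 is its highest point at 19327 TPM, while the points of neighbouring genes overlap.

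Among long noncoding RNAs by the annotation's class, *H19*, an imprinted fetal growth RNA, was highest at 1354 to 2313 TPM. *Malat1*, a nuclear RNA, ranged from 93.7 to 338 TPM and was lowest in control 4. *Gm15564* averaged 602 ± 279.7 TPM, *Ifi30* 279 ± 44.5 TPM and *2410006H16Rik* 195 ± 16.9 TPM (SD, n = 6 each). *Ifi30* encodes a lysosomal enzyme that the annotation lists as a processed transcript. *Gm15564* is annotated as antisense, and since the strand setting of the counting is not given, its reads cannot be told apart from those of an overlapping gene.

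The promoters of *Otor* and *Bglap* are shown because *Otor* led the expression ranking and *Bglap* is among the 20 genes with the widest spread between mice described below, and both hold a TATA motif. The sequences are the 250 bases before the annotated start in RefSeq (GRCm38.p6), 5′ to 3′, at chr2:143078143-143078392 on the plus strand for *Otor* and at chr3:88384467-88384716 on the minus strand for *Bglap*. Capitals mark TATAAA on the sense strand, starting at -35 in *Otor* and -27 in *Bglap* relative to the start. The motif was searched between -40 and -20 on the sense strand only, and 2.41% of the 27025 genes in the promoter table hold it there. A match is a description of the letters only.
Otor: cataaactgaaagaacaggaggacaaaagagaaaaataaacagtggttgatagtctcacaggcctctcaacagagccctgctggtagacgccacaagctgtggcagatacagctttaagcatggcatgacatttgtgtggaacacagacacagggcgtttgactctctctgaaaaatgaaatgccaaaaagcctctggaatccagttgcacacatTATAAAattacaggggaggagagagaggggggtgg
Bglap: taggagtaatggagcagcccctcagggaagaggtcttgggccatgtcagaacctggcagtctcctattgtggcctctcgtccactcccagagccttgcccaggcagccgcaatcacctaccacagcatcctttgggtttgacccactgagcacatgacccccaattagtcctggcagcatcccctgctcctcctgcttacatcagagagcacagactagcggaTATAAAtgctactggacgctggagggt

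Between mice, 13503 of the 18226 genes tested, or 74.1%, differed by more than counting error (Pearson chi-square of the 6 counts against Poisson counting, Benjamini-Hochberg adjusted p under 0.05). At this depth most genes therefore pass this test, and the size of the spread is given as the biological CV, the CV of CPM over the 6 mice after its counting part is removed. The median biological CV was 9.88% over all tested genes, 8.88% over the 12888 genes that averaged 100 counts or more per mouse and 8.12% over the 6812 that averaged 1000 or more. Of the 12888 genes, 88.6% differed beyond counting error, and 578 or 4.48% had a highest mouse at least 2-fold the lowest. Only 77 of them had a biological CV over 50%.

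**Figure D2:**
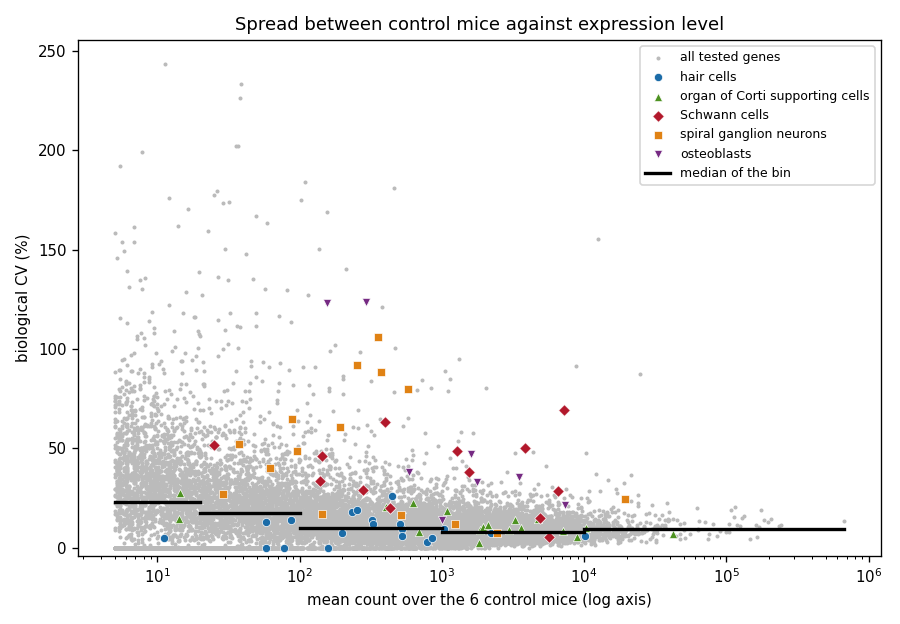
Biological CV in percent against mean count on a log axis for the 18226 tested genes, with bars for the median of 5 bins of mean count and colours for 5 marker lists. The bin medians fall from 23.1% at mean counts of 5 to 20 to 8.03% at 1000 to 10000 and stand at 9.61% above that. In the lists, 12 of 13 Schwann cell, 14 of 15 neuron and 8 of 8 osteoblast markers lie above the median of their bin, beside 13 of 18 supporting cell and 7 of 20 hair cell markers.

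Hair cell genes were weak, and their sum varied little between mice. Of 20 markers, 18 reached a mean of 1 TPM, and their summed level had a lowest, median and highest mouse of 332, 345 and 359.8 TPM, a range of 1.08-fold. *Myo6* made up 28.2% of the sum and *Cib2* averaged 83.6 TPM, while by level the median member was at 5.78 TPM. Without *Myo6* the summed range was 1.1-fold. Other tissues in these libraries may hold RNA of these genes, and their part in the sum was not tested. A steady sum is therefore not a measure of hair cell content alone. 13 of 20 tested members differed beyond counting error, against 74.1% of all genes, and 0 of the 15 averaging at least 100 counts had a 2-fold range, against 4.48% of all. *Myo6*, a myosin of the hair bundle base, was at 88.0, 98.1 and 107 TPM in the lowest, median and highest mouse. *Cib2*, a partner of the mechanotransduction channel that other cells also express, ranged from 75.1 to 91.9 TPM. *Otof*, the calcium sensor of hair cell exocytosis, ranged from 27.5 to 38.3 TPM, and *Tmie*, part of the transduction complex, from 27.9 to 31.5 TPM. *Myo15*, a motor that elongates stereocilia, varied most among them at 2.60 to 5.62 TPM with a biological CV of 26.2%, and *Loxhd1* (18.8%) and *Pcdh15* (18.1%), a stereocilium protein and a tip link cadherin, came next. *Atoh1*, the transcription factor that starts hair cell formation, had a mean of only 0.612 TPM from 11.2 counts and was picked with its values in view.

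Markers of outer and inner hair cells were measured separately. *Ocm*, the calcium buffer oncomodulin, made up 82.7% of the outer hair cell sum. It ranged from 229 to 467 TPM and was highest in controls 3 and 4 (467 and 379 TPM). *Slc26a5*, which encodes the outer hair cell motor prestin, had its lowest, median and highest values at 8.75, 17.2 and 22.4 TPM. Controls 4 and 5 were lowest, at 8.78 and 8.75 TPM, and control 3 was highest, as for *Ocm*. *Chrna9* and *Chrna10*, subunits of the efferent acetylcholine receptor, ranged from 3.38 to 7.19 TPM and from 12.7 to 16.4 TPM. Without control 3 the summed range of 1.88-fold became 1.48-fold, and 7 of 7 members differed beyond counting error, beside 74.1% of all genes. The inner hair cell sum was led by *Tbx2*, a transcription factor that mesenchyme and other tissues also express (90.9 to 116 TPM). *Slc17a8*, the vesicular glutamate transporter that loads inner hair cell synaptic vesicles, ranged from 5.68 to 6.89 TPM, a spread not beyond counting error, and *Fgf8*, an inner hair cell signal to pillar cells, from 1.97 to 3.95 TPM. *Dnajc5b* had a mean count of 0.5.

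Supporting cell genes were abundant, and their sum varied little between mice although most members varied more than other genes of their level. The sum over 18 markers was 4648, 5020.2 and 5124 TPM in the lowest, median and highest mouse, a range of 1.1-fold, and 0 of 16 members averaging at least 100 counts had a 2-fold range. 15 of 18 tested members differed beyond counting error, beside 74.1% and, for the 2-fold range, 4.48% of all genes. Among all genes averaging at least 100 counts, 88.6% differed beyond counting error. *Gjb2* made up 41.1% of the sum, and by level the median member was at 74.8 TPM. Other tissues in these libraries may hold RNA of these genes, and their part in the sum was not tested. 13 of 18 members lay above the median biological CV of their bin of mean count. The median biological CV of the list was 10.3%, beside 9.88% over all tested genes and 8.88% over those averaging at least 100 counts. *Gjb2* and *Gjb6*, the connexins of cochlear gap junctions, ranged from 1741 to 2187 TPM and from 351 to 510.1 TPM, both lowest in control 4. *S100a1* ranged from 1388 to 1583 TPM and *Fabp7*, a lipid carrier of inner phalangeal and Hensen's cells, from 158 to 199 TPM. *Npy*, a neuropeptide, varied most among members averaging at least 20 counts (22.8%), followed by *Prox1* (20.5%) and *Sox2* (18.5%). *Prox1* is a transcription factor of pillar and Deiters' cells. *Sox2*, the transcription factor of prosensory and supporting cells, was at 73.0, 54.5, 43.1, 59.9, 68.7 and 66.5 TPM in controls 1 to 6. Control 3 was thus lowest and control 1 highest. *Jag1*, the Notch ligand that is floxed in these mice and that was picked with its values in view, was at 73.7, 61.9, 55.7, 52.2, 72.8 and 72.7 TPM. Controls 2, 3 and 4 lay between 52.2 and 61.9 TPM and controls 1, 5 and 6 between 72.7 and 73.7 TPM, a 1.40-fold range of CPM.

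The greater epithelial ridge and tectorial membrane list summed to 7184, 8355 and 9129 TPM, a range of 1.27-fold, with control 3 lowest. 10 of 11 tested members differed beyond counting error, beside 74.1% of all genes. *Tectb* and *Epyc* together with *Tecta*, which encodes alpha-tectorin, and *Dkk3*, a secreted Dickkopf family protein, led it. *Tecta* ranged from 272 to 476 TPM and was lowest in controls 3 and 4 (277 and 272 TPM), while *Dkk3* ranged from 153 to 207 TPM. *Otogl*, an otogelin-like tectorial membrane protein with a long transcript, ranged from 32.2 to 80.4 TPM and was lowest in controls 4 and 5 (32.2 and 41.2 TPM). These are the mice in which long genes were lower on the median, and the part of length in the *Otogl* values was not tested. *Fst*, which encodes the activin antagonist follistatin, had a biological CV of 21.1%.

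Inner ear transcription factors showed the narrowest summed range of the 26 lists plotted by mouse, 1.06-fold from 2584 to 2747 TPM. 23 of 28 tested members differed beyond counting error and 0 of 24 had a 2-fold range, beside 74.1% and 4.48% of all genes. These 24 members averaged at least 100 counts, and 88.6% of all genes at that level differed beyond counting error. Above the median biological CV of their bin of mean count lay 14 of 28. *Id3*, *Id2* and *Id1*, inhibitors of basic helix-loop-helix factors and targets of BMP signalling, averaged 612 ± 44.7, 454 ± 37.1 and 222 ± 30.3 TPM (SD, n = 6). *Sox10*, a factor of otic epithelium and Schwann cells, ranged from 205 to 227 TPM. *Isl1*, a factor of prosensory cells and neurons, had a biological CV of 17.7%. *Hes5*, a Notch target, had few counts, with levels of 0.562 to 1.76 TPM that did not differ beyond counting error and was picked with its values in view.

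Of 74 hereditary deafness genes, 70 reached a mean of 1 TPM, with a median gene at 33.5 TPM. 60 of 73 tested members differed beyond counting error, and 5 of 67 had a 2-fold range, beside 74.1% and 4.48% of all genes. These 67 members averaged at least 100 counts, and 88.6% of all genes at that level differed beyond counting error. The highest were *Col2a1*, *Col9a1*, *Col11a2* and *Gjb2*. The median biological CV of the list was 10.1%, beside 9.88% over all tested genes and 8.88% over those averaging at least 100 counts. Above the median of their bin of mean count lay 40 of 73 members. *Slc26a5*, *Hgf* and *Otogl* varied most, at 34.3%, 30.2% and 29.5%. *Hgf*, hepatocyte growth factor, ranged from 6.51 to 16.0 TPM.

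Around the epithelium, fibrocyte and mesenchyme genes had the largest sum of any cell type list, 21183, 22462 and 27491 TPM in the lowest, median and highest mouse, and *Otor* made up 68.3% of it. 11 of 11 tested members differed beyond counting error, and 3 of 11 had a 2-fold range, beside 74.1% and 4.48% of all genes. *Otos* and *Coch*, products of spiral ligament and limbus fibrocytes, ranged from 539 to 1262 TPM and from 477 to 941 TPM. Both were highest in control 4, at 1262 and 941 TPM. *Lum*, the proteoglycan lumican, ranged from 1716 to 2305 TPM. The chains of type I collagen differed in spread. *Col1a2* ranged from 1414 to 2168 TPM, a 1.43-fold range of CPM, while *Col1a1* was at 23.8, 69.4, 127, 66.1, 206 and 407 TPM in controls 1 to 6. Its range of 16.5-fold in CPM had control 6 highest and control 1 lowest, the same mice as the osteoclast sum. Without control 4 the summed range of 1.30-fold became 1.07-fold.

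The summed levels of strial marginal cell genes and of pigment cell genes were lowest in control 4. Marginal cell genes summed to 1427, 1946 and 2072 TPM, and each of the 7 members was lowest in control 4. *Atp1b2*, a sodium pump subunit, was at 625 TPM in control 4 and 775 to 868 TPM in the other 5. *Slc12a2*, which takes up sodium, potassium and chloride, was at 296 TPM in control 4 and 363 to 513 TPM in the others. *Kcne1* and *Esrrb*, a potassium channel subunit and a nuclear receptor of marginal cells, ranged from 238 to 358 TPM and from 99.3 to 155 TPM. Melanocyte and intermediate cell genes summed to 659.7 TPM in control 4 and 909 to 994 TPM in the other 5. *Dct*, an enzyme of melanin synthesis, was at 383 TPM in control 4 and up to 586 TPM elsewhere. *Kcnj10*, the potassium channel that sets the endocochlear potential, ranged from 108 to 156 TPM. *Pmel*, a melanosome matrix protein, was the exception, lowest in control 1 (25.0 TPM) and highest in control 5 (67.1 TPM). *Tyrp1*, a further melanin enzyme, was at 0.154 to 0.271 TPM and was picked with its values in view. Without control 4 the summed ranges of 1.45-fold and 1.51-fold fell to 1.14-fold and 1.09-fold.

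**Figure D3:**
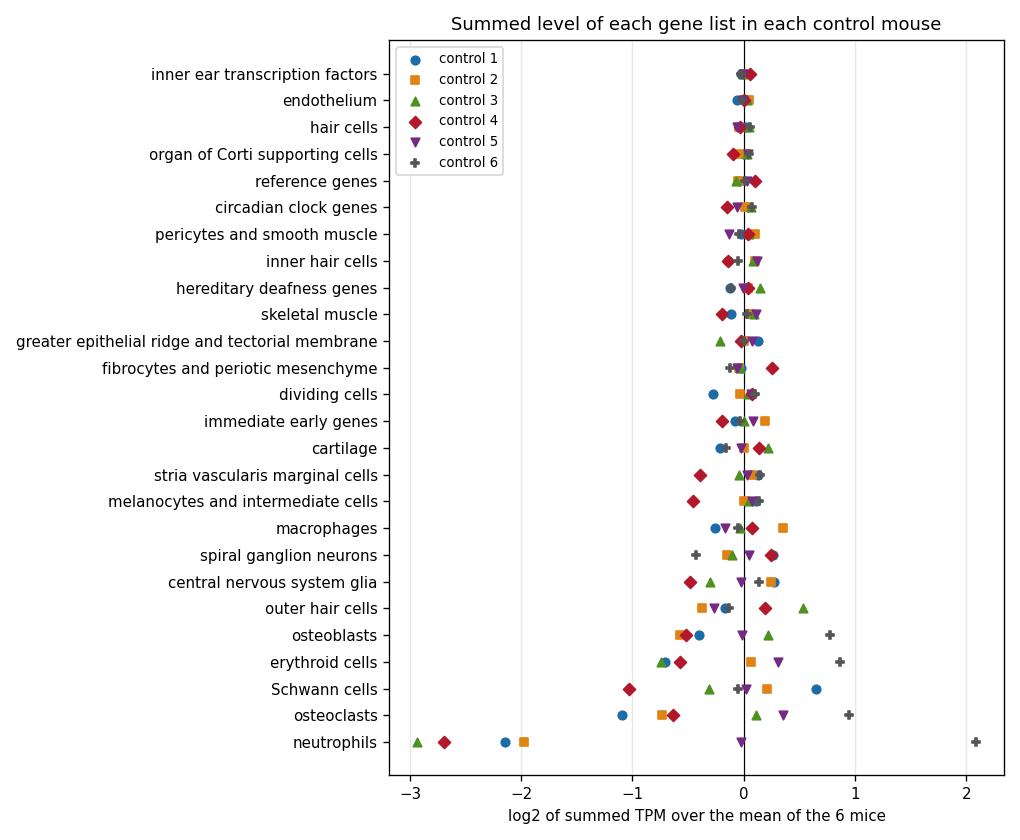
Summed TPM of each of 26 gene lists in each control mouse, as the log2 of its ratio to the mean of the 6 mice, ordered by the range between mice. The lists from inner ear transcription factors to reference genes stay within 1.13-fold, control 4 is the low point for strial, melanocyte and Schwann cell genes, and control 6 is the high point for osteoblast, osteoclast, neutrophil and erythroid genes.

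Schwann cell genes differed widely between mice. 13 of 13 tested members differed beyond counting error, and 9 of 12 had a 2-fold range, against 74.1% and 4.48% of all genes. Their sum was 2081, 1534, 1065, 648, 1339 and 1274 TPM in controls 1 to 6. *Cldn19*, a tight junction protein of myelin, was at 22.1, 12.1, 7.0, 1.15, 10.2 and 13.4 TPM. Control 4 was far below the other 5 and control 1 was highest. *Mbp*, myelin basic protein, which was picked with its values in view, ranged from 16.5 to 96.9 TPM and *Foxd3*, a neural crest factor, from 0.234 to 2.24 TPM, each with control 4 lowest. *Pmp22*, a myelin protein also made elsewhere, ranged from 203 to 479 TPM, and *Mal* from 156 to 257 TPM. *Sox10*, which otic cells and melanocytes also express, varied by 5.67%. The summed range of 3.21-fold became 1.95-fold without control 4 and 2.37-fold without control 1.

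Neuronal genes were likewise highest in controls 1 and 2 by the median member, although the sum did not show it. *Scg2*, a secretogranin of secretory granules (620.3 to 1139 TPM), made up 76.5% of the sum, and 15 of 15 tested members differed beyond counting error. 6 of 10 had a 2-fold range, and the shares of all genes for these counts were 74.1% and 4.48%. The summed range was 1.62-fold, and 2.55-fold as a mean of log2(TPM + 1), in which members weigh equally. *Nefh*, *Snap25* and *Nefl* varied most. *Nefh*, the heavy neurofilament chain of large axons, was at 27.2, 22.0, 3.40, 0.599, 2.98 and 7.52 TPM in controls 1 to 6. Controls 1 and 2 were highest and control 4 lowest, a 43.0-fold range of CPM with a biological CV of 106%. *Nefl*, the light chain, ranged from 2.03 to 31.1 TPM, and *Snap25*, a synaptic vesicle fusion protein, from 0.769 to 11.3 TPM, each with control 1 highest and control 4 lowest. *Uchl1*, a ubiquitin hydrolase of neurons that other cochlear cells also express, ranged only from 161 to 187 TPM, and *Tubb3*, neuronal tubulin, from 24.9 to 40.1 TPM. Over the 10 members averaging at least 100 counts, the median log2 deviation from the 6-mouse mean was 0.77, 0.48, -0.61, -0.53, 0.03 and 0.02 in controls 1 to 6. The same medians for Schwann cell genes were 0.67, 0.34, -0.26, -1.02, 0.15 and 0.12, while those for hair cell genes stayed between -0.04 and 0.07.

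Bone, bone-resorbing and blood cell genes also differed, in another order. *Bglap*, which encodes osteocalcin of mature osteoblasts and whose promoter is printed above, was at 4.31, 9.92, 73.3, 4.58, 53.5 and 182 TPM in controls 1 to 6. Controls 1, 2 and 4 were low and controls 3, 5 and 6 high. Its near-identical neighbour *Bglap2* showed the same split, at 3.68 to 126 TPM, and reads shared by the pair make the division between them uncertain. Of the 8 osteoblast markers, 6 had a 2-fold range, beside 4.48% of all genes. *Ibsp*, bone sialoprotein, was most abundant at 302 to 569 TPM, with *Dmp1*, a matrix protein of osteocytes, at 99.8 to 253 TPM and *Alpl*, alkaline phosphatase, at 31.1 to 73.0 TPM. *Phex*, a phosphate-regulating peptidase of bone, was at 59.6 TPM in control 6 and 21.4 to 26.3 TPM elsewhere. Among osteoclast markers, *Ctsk*, the collagen-degrading cathepsin K, ranged from 150.1 to 431 TPM, *Acp5*, tartrate-resistant acid phosphatase, from 16.4 to 200.3 TPM, and *Mmp9*, a matrix protease, from 9.0 to 89.3 TPM, each with control 6 highest. *Atp6v0d2*, a proton pump subunit of osteoclasts, and *Calcr*, the calcitonin receptor, were also highest in control 6, at 9.59 and 0.569 TPM. 7 of 7 tested members differed beyond counting error, beside 74.1% of all genes. The osteoblast and osteoclast sums ranged 2.54-fold and 4.11-fold, or 1.73-fold and 2.74-fold without control 6. *Ctsk* made up 70.3% of the osteoclast sum, which ranged 10.6-fold without it. The osteoblast range was 3.98-fold as a mean of log2(TPM + 1).

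Neutrophil genes were at a low level in 4 mice and higher in controls 5 and 6. *S100a9* and *S100a8*, the subunits of calprotectin, were at 148 and 75.4 TPM in control 6 and 33.9 and 13.4 TPM in control 5, and the other 4 mice lay at or below 6.29 and 3.84 TPM. *Ngp* and *Ltf*, granule proteins, were highest in control 6 at 23.0 and 6.97 TPM, as was *Camp* at 13.8 TPM. *Mpo* and *Elane*, enzymes of immature neutrophils, had mean counts of 3.67 and 0.5. The summed range of 32.5-fold became 7.52-fold without control 6 and 7.15-fold as a mean of log2(TPM + 1). Red cell genes summed to 1529, 2202 and 4667 TPM, with control 6 highest. *Hbb-bs* and *Hbb-bt*, beta globins, ranged from 894 to 2861 TPM and from 110.0 to 327 TPM, and *Alas2*, the first enzyme of red cell haem synthesis, from 17.2 to 50.2 TPM. *Hba-a1*, an alpha globin, ranged from 387 to 1122 TPM, whereas *Hba-a2* was at 116 and 363 TPM in controls 3 and 6 and at most 1.48 TPM in the other 4. The alpha globin genes are near-identical copies, so the division of reads between them is uncertain. The globin genes together held 0.0299% to 0.0929% of counts.

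**Figure D4:**
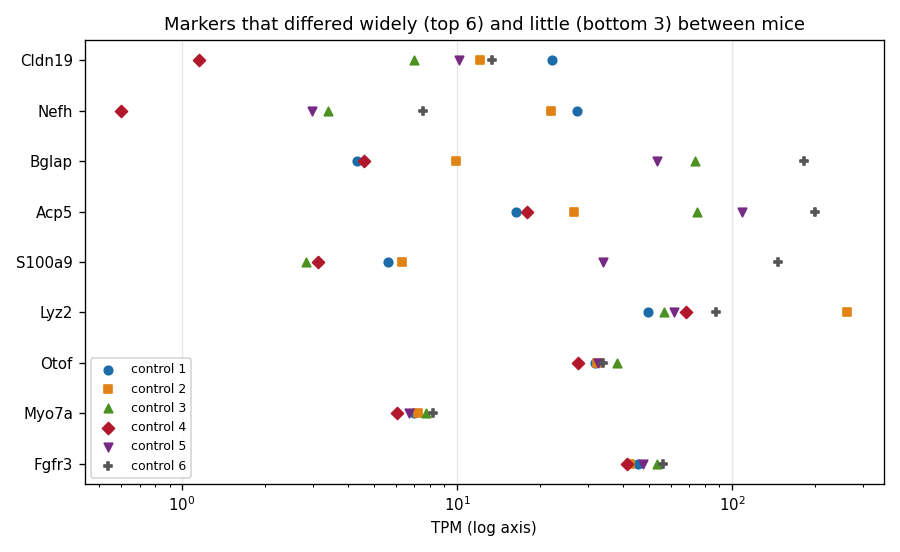
TPM on a log axis of 6 markers that differed widely between control mice and 3 that did not, each symbol 1 mouse. *Cldn19* and *Nefh* are lowest in control 4, *Bglap*, *Acp5* and *S100a9* are highest in control 6, and *Lyz2* is highest in control 2 at 263 TPM. The hair cell genes *Otof* and *Myo7a* and the supporting cell gene *Fgfr3* stay within narrow ranges. All were picked with their values in view, and other hair cell and supporting cell markers, such as *Myo15* and *Npy*, varied more.

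Macrophage genes were present in each mouse. *C1qa* and *C1qb*, complement chains made by macrophages, ranged from 145 to 183 TPM and from 89.1 to 132 TPM. *Tyrobp*, a signalling adaptor, ranged from 72.7 to 101 TPM. *Lyz2*, a lysozyme of macrophages and neutrophils, was at 263 TPM in control 2 and 49.3 to 87.3 TPM in the other 5, a separation that *S100a9* did not share. *Cd68* had a biological CV of 23.5% and *Ptprc*, the pan-leukocyte marker CD45, of 20.9%. 2 of 12 members had a 2-fold range, beside 4.48% of all genes. Sums of vessel genes varied little, but 7 of 10 endothelial and 6 of 8 pericyte markers lay above the median biological CV of their bin of mean count. Endothelial genes summed to 605, 631 and 652 TPM, a range of 1.08-fold, with *Cldn5*, a tight junction protein, at 118 to 144 TPM, *Emcn*, endomucin, at 116 to 138 TPM, and *Cdh5*, vascular cadherin, at 93.0 to 115 TPM. *Egfl7* varied most of the 10, at 15.5%. Pericyte genes were led by *Rgs5* (382 to 488 TPM) and *Pdgfrb* (153 to 208 TPM), with a summed range of 1.18-fold.

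Dividing cell genes were low, with a summed level of 52.7, 66.3 and 68.7 TPM. *Mki67* ranged from 9.60 to 12.7 TPM and *Top2a*, topoisomerase II alpha, from 8.96 to 11.7 TPM, and the sum was lowest in control 1. 10 of 10 tested members differed beyond counting error, and 0 of 10 had a 2-fold range, beside 74.1% and 4.48% of all genes. The mitotic kinase *Aurkb* varied most, at 18.7%. Of 8 cartilage markers, 5 reached a mean of 1 TPM. *Col2a1*, which is also a tectorial membrane collagen, made up 77.7% of their sum. Among the other cartilage genes, *Lect1*, chondromodulin, ranged from 2090.5 to 2750.3 TPM and *Acan*, aggrecan, from 48.2 to 70.5 TPM. *Matn3*, a cartilage matrilin, had a mean count of 4.67, and *Hapln1*, a link protein, ranged from 1.53 to 6.43 TPM with control 6 highest. Skeletal muscle genes summed to only 8.53, 10.1 and 10.5 TPM. *Acta1*, *Tnnc2*, *Myog*, *Ckm* and *Myh3* each had a mean count of at most 2. Of central nervous system glial markers, *Olig1*, *Olig2* and *Mog* had mean counts of 1, 0.667 and 3.83, and 82.9% of that sum came from *Aqp4*, a water channel that cochlear supporting cells also express.

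Genes often used as references differed between mice by more than counting error in 15 of 15 cases, and 0 of 15 had a 2-fold range, beside 74.1% and 4.48% of all genes. All 15 averaged at least 100 counts, and 88.6% of genes at that level differed beyond counting error. Above the median biological CV of their bin of mean count lay 7 of 15. *Sdha* (3.09%) and *Pgk1* (3.43%) varied least in biological CV. *Gusb*, *Polr2a*, *B2m*, *Tbp*, *Rplp0* and *Ppia* lay between 6.96% and 9.39%, and *Actb*, *Hprt* and *Ywhaz* between 10.9% and 13.0%. *Gapdh*, the glycolytic enzyme, was at 249.3 and 245 TPM in controls 1 and 6 and 325 to 343 TPM in the other 4, a biological CV of 17.4%. *Tfrc*, the transferrin receptor, varied most (24.8%). The genes with the lowest spread among those averaging 1000 counts or more included *Sdhc*, *Scaper*, *Ranbp9*, *Wdr43*, *Fbxo22*, *Wdr41*, *Gnpat*, *Cog7* and *Unc50*. Their biological CV was 0, as for 35 of the 6812 genes at that level, and ties were ordered by the CV of CPM, from 0.980% for *Sdhc*, a subunit of mitochondrial complex II, to 1.86% for *Unc50*. *Sdhc* ranged from 125 to 128 CPM. Immediate early genes, which respond to handling and dissection, summed to 509, 577 and 667 TPM. Among them *Klf4*, *Jund*, *Ier2* and *Btg2* were highest, and *Fos* was at 4.81 to 9.22 TPM and was picked with its values in view. 1 of 13 had a 2-fold range, beside 4.48% of all genes, and this was *Egr2*, which Schwann cells also express. Circadian clock genes summed to 503, 568 and 588 TPM, led by *Hlf* and *Tef*, and 0 of 14 had a 2-fold range, beside 4.48% of all genes.

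Of the 20 genes with the highest biological CV among those 12888 genes, 10 belong to the lists used here. *S100a8* and *S100a9* are on the neutrophil list, *Bglap* and *Bglap2* on the osteoblast list, *Acp5* on the osteoclast list, *Col1a1* on the fibrocyte list, *Nefh* and *Snap25* on the neuron list, *Hba-a2* on the erythroid list, and *Xist* on the list of X inactivation and Y genes. The others are on no list. *Mmp13*, a collagenase of bone and cartilage, ranged from 0.498 to 33.7 TPM and *Mepe*, an osteocyte phosphoprotein, from 1.11 to 26.9 TPM, both highest in control 6. *Cplx1*, a regulator of synaptic vesicle fusion, was at 21.4 and 16.4 CPM in controls 1 and 2 and 1.16 CPM in control 4, and *Eef1a2* also had control 1 highest and control 4 lowest. *1520401A03Rik* ranked first with a biological CV of 184% from a value of 14.7 CPM in control 6, 3.56 CPM in control 2 and at most 0.242 CPM in the others. *n-R5-8s1*, a ribosomal RNA gene, and *Gm23935*, annotated as a microRNA, had biological CVs of 102% and 121%.

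Some genes were nearly on in some mice and off in others. 52 of the 12888 genes had a gap of at least 1 on the log2 scale between neighbouring mice with at least 2 mice on each side, and 15 had a gap of at least 2. *Xist*, the RNA that coats the inactive X chromosome, was at 1397 and 1219.8 CPM in controls 1 and 3 and below 1 CPM in the other 4. *Ddx3y*, *Kdm5d*, *Eif2s3y* and *Uty*, on the Y chromosome, showed the opposite split, with *Ddx3y* at 88.7, 86.0, 72.6 and 112 CPM in controls 2, 4, 5 and 6 and at most 0.0346 CPM in controls 1 and 3. By these genes controls 1 and 3 are female and controls 2, 4, 5 and 6 male. The part of sex in the spread of other genes was not tested. *Tsix*, antisense to *Xist*, and *Usp9y*, also on the Y, had mean counts of 3.50 and 0.167. *Zfy1* and *Zfy2* were not analysed here. *Gm10020* and *Rpl15-ps2* were at 8.78 to 10.4 CPM and 6.27 to 8.64 CPM in controls 1, 3, 4 and 6 and at or near 0 in controls 2 and 5. *Gm10036* was at 14.2 and 12 CPM in controls 3 and 4 and at most 0.200 CPM in the other 4, and *Gm13225* was at most 0.0861 CPM in controls 5 and 6 and 2.49 to 8.86 CPM in the other 4. The first 3 of these are processed pseudogenes, which share sequence with their parent genes, so their values are uncertain.

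Principal components of log2(CPM + 1) over 2000 variable genes put 34.4%, 24.4% and 20.4% of the variance on the first 3 axes. *Xist* and the Y genes sat at the ends of the first 2, so the components were repeated without them, an alternative chosen after seeing the data. The first then held 34.9%. It set controls 4 and 5 at 18.8 and 7.76, control 3 at -0.273, and controls 1, 6 and 2 at -11.6, -7.67 and -7.02. Its low end held 6 of 10 neuron markers and 6 of 11 Schwann cell markers among the 100 genes with the strongest loading, with *Nefh*, *Kcna1* and *Cplx1* among its leading genes, and its high end held *Coch*, *Otos*, *Pmel*, the supporting cell marker *Npy* and 1 neuron marker, *Scg2*. *Kcna1* encodes an axonal potassium channel. The genes leading the high end were *Gm10036*, *2410018L13Rik*, *Rec8*, *Gm6768* and *Gm10451*. Of these, *2410018L13Rik*, *Gm6768* and *Gm10451* lie on chromosome 12, as do others further down that end, while *Gm10036* and *Rec8* lie on chromosomes 18 and 14. The 100 genes at the low end had a median exon length of 5602 bases and those at the high end 2558 bases, beside 4420 over the 2000 genes. Length, cell type markers and genes of chromosome 12 moved with this component, and their part in it was not tested. The second component held 23.8% and set control 6 at 13.3 and control 3 at 7.49 against controls 1 and 2 at -10.4 and -8.21. Its high end held 6 of 7 osteoblast markers, 5 of 5 osteoclast markers and 4 of 5 neutrophil markers, led by *Hba-a2*, *Bglap*, *Bglap2*, *Acp5* and *Col1a1*, and its low end held 7 of 10 neuron markers, led by *Gm13225*, *Gm5345*, *Cplx1*, *Nefh* and *Slc17a7*. *Slc17a7* encodes a vesicular glutamate transporter of neurons.

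**Figure D5:**
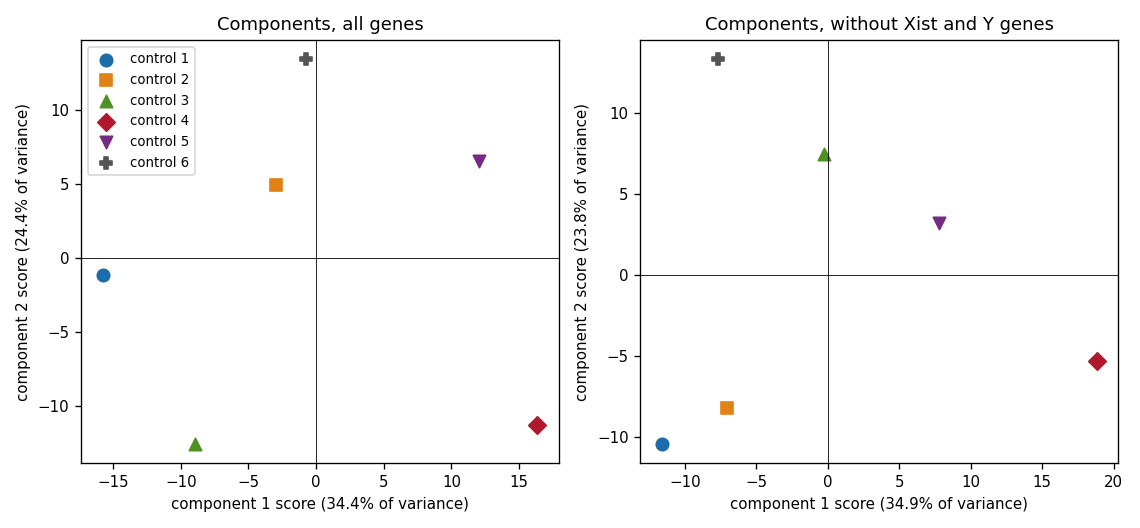
Scores of the 6 control mice on the first 2 principal components of log2(CPM + 1), with 2000 genes on the left and after leaving out *Xist* and the Y genes on the right. On the right control 4 lies at the high end of component 1, at 18.8, with control 5 next at 7.76. Control 6 lies at the high end of component 2, at 13.3, while controls 1 and 2 have negative scores on both.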

How the data were processed

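RNA was measured by single-end reads from the cochleae of 12 mice, of which the 6 controls were used. RNA integrity numbers were 9.7 to 10 per the labels. The deposited table of the authors holds unprocessed read counts for each gene symbol in each library, neither normalized nor pooled. The submitters' processing notes name Trimmomatic 0.32, STAR 2.4.2a, HTSeq 0.9.1, DESeq2 1.10.1 and GRCm38.p4, and the annotation and strand setting are not given in the sources used here. A deposited table of the authors' comparison of the genotypes, with fold changes and p-values, was not used.

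CPM values used TMM factors from edgeR 4.0.16 in R 4.3.3 on the 6 controls only. Exon lengths (union of exons) and gene classes came from GENCODE M21 (GRCm38), in which 94.5% of symbols, with 99.6% of the counts, had a length. TPM values were computed from these lengths, and symbols without a length have none. The chi-square test of spread used Python 3.11.15 with scipy 1.17.1, on genes averaging at least 5 counts, with Benjamini-Hochberg adjustment, and was checked on simulated data. The biological CV is 0 where counting error covers the spread. Depth sets this error, and totals were 28498549 to 34430252 counts. Symbols *Ahsp*, *Zfy1* and *Zfy2* were not analysed here, and some genes that the rule below names are not reported here. Dispersions from DESeq2 1.42.0 and edgeR were alternatives.

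The members and gene lists were chosen with earlier results of these data known, so no p-value is given for a list. Genes were named by a rule: the 20 highest nuclear protein-coding genes, the 20 with the highest biological CV, the 10 with the lowest, the 4 highest and 3 most variable members of each list and its members with a mean count under 5, the reference, *Xist* and Y genes, the 10 widest gaps, the 5 highest long noncoding RNAs and 5 genes at each end of components 1 and 2. Other genes served only where said. Alternatives tried were other normalizations, filters, thresholds, lengths and gene numbers, and leaving out each mouse.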

Additional observations from a re-analysis of the deposited data

Results flagged for a closer look

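Of 67 sets of 6 values examined (library measures, list sums, the 20 highest genes and the reference genes), 6 had a lowest or highest mouse set apart by more than Dixon's critical ratio, where chance sets apart about 5% of sets. The share of counts on the ribosomal RNA symbol *Rn18s-rs5* was 0.203% in control 5 and 0.0299% to 0.0730% in the other 5 mice. The other 5 sets are gene levels. Control 4 was set apart in 4 of them: the melanocyte sum was 659.7 TPM against 909 to 994 TPM, the fibrocyte sum 27491 TPM against 21183 to 22615 TPM, the inner ear transcription factor sum 2747 TPM against 2584 to 2635 TPM, and *Otor*, which leads the fibrocyte sum, 19327 TPM against 14159.7 to 15429 TPM. The part of gene length in the *Otor* level and in the sum that it leads was not tested. Control 6 was set apart in the neutrophil sum, 267 TPM against 8.22 to 61.8 TPM.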

How the results depend on the processing

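The count of genes that differed beyond counting error stayed between 12042 and 13576 under RLE normalization, total counts, no filter, a minimum mean count of 20 and an adjusted p under 0.01, and between 12330 and 13027 when each mouse was left out. The median biological CV of 9.88% became 9.06% without a filter, 9.44% at a minimum mean count of 20, 13.6% with edgeR's tagwise dispersions and 12.5% with DESeq2's, which are pulled towards a trend, and 9.07% to 10.1% when each mouse was left out, lowest without control 4. The count of genes with a 2-fold range was 446 to 521 without 1 mouse and 103 of those averaging at least 1000 counts, a smaller set. With the longest transcript as the length, 17 of the 20 highest genes remained among them. The variance on the first component was 35.4% to 42.6% without 1 mouse. As a mean of log2(TPM + 1), the highest mouse over the lowest (antilog of the difference) was 1.15 for hair cells, 1.45 for outer hair cells, 2.55 for spiral ganglion neurons, 3.98 for osteoblasts, 7.15 for neutrophils, 4.38 for erythroid cells, 1.09 for skeletal muscle, 1.21 for central nervous system glia. With TMM-scaled counts per kilobase it was 1.04 for hair cells, 1.42 for fibrocytes and periotic mesenchyme, 1.11 for endothelium. Without the member with the highest level, chosen after seeing the data, it was 1.52 for outer hair cells, 1.94 for Schwann cells, 3.77 for osteoblasts, 10.6 for osteoclasts, 1.11 for endothelium, 1.28 for pericytes and smooth muscle, 1.39 for skeletal muscle. Leaving out each mouse gave 1.48 to 1.88 for outer hair cells, 1.06 to 1.1 for organ of Corti supporting cells, 1.11 to 1.27 for greater epithelial ridge and tectorial membrane, 1.34 to 1.62 for spiral ganglion neurons, 1.95 to 3.21 for Schwann cells, 1.14 to 1.45 for stria vascularis marginal cells, 1.09 to 1.51 for melanocytes and intermediate cells, 1.07 to 1.30 for fibrocytes and periotic mesenchyme, 1.73 to 2.54 for osteoblasts, 2.74 to 4.11 for osteoclasts, 1.26 to 1.52 for macrophages, 7.52 to 32.5 for neutrophils, 2.08 to 3.05 for erythroid cells, 1.04 to 1.08 for endothelium, 1.11 to 1.18 for pericytes and smooth muscle, 1.1 to 1.30 for dividing cells. The cause of these shifts was not tested. No paired analysis was possible because only 1 group was used. Depth limits members with few counts, such as *Atoh1*.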

Other observations

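Interferon-stimulated genes, which cells switch on in response to interferon, were higher in control 3. The 12 genes listed here were picked with their values in view, so their direction carries no support. 8 of the 12 were highest in control 3, and their median log2 deviation from the 6-mouse mean was 0.13, -0.47, 0.66, -0.13, 0.02 and -0.21 in controls 1 to 6. *Ifit3*, which encodes an antiviral protein, was at 9.97 CPM in control 3 and 1.89 to 3.10 CPM in the other 5. *Isg15*, a ubiquitin-like modifier, was at 5.12 CPM and 1.39 to 2.69 CPM. *Oasl2* was at 13.8 CPM and 4.59 to 6.63 CPM, and *Irf7*, a transcription factor of the response, at 8.24 CPM and 2.81 to 4.54 CPM. *Bst2*, *Rtp4* and *Xaf1* were among those not highest in control 3. 11 of 12 differed beyond counting error, beside 74.1% of all genes, and *Xaf1* did not. Control 3 also had the lowest mitochondrial share of counts, whose part in this was not tested.

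The promoters of *Ifit3* and *Isg15* are shown because they hold an interferon response motif, GAAA and again GAAA with any 2 bases between them, which was searched on both strands within 250 bases before the start and which 3.46% of the 27025 genes in the RefSeq promoter table hold. Of the 12 genes, 9 are in that table and 5 of these hold it, while 4 do not. The sequences lie at chr19:34583279-34583528 on the plus strand and at chr4:156200819-156201068 on the minus strand (GRCm38.p6), 5′ to 3′. Capitals mark each match, starting at -156 and -122 in *Ifit3*, on the opposite strand, and at -78, -72 and -66 in *Isg15*, where the matches overlap.
Ifit3: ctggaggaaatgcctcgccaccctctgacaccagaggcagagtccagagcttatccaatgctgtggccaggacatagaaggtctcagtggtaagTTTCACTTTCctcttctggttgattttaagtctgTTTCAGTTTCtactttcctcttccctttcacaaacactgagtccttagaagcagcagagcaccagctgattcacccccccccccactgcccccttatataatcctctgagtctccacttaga
Isg15: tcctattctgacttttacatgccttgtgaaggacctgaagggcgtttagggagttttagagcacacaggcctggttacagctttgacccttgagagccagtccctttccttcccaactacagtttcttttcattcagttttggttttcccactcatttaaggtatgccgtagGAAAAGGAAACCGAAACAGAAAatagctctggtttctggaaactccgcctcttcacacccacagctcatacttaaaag

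Genes of the mitochondrial chromosome, picked with their values in view, were very unequal. *mt-Cytb*, *mt-Co1* and *mt-Nd1* averaged 16249 ± 1742, 15412 ± 2306 and 13832 ± 2680.1 TPM (SD, n = 6), while *mt-Co2* and *mt-Co3* had mean counts of 0.833 and 0.167 per mouse. *mt-Nd6*, which lies on the opposite strand to the others, averaged 7789 ± 1121 TPM, and the strand setting of the counting is not given.

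Among the 52 genes with a gap between mice, 10 were low in controls 4 and 5 together. These were *Zfp871*, *Gucy1a2*, *Arfgef3*, *Gprin3*, *Cbl*, *Hipk2*, *Ptar1*, *Igsf9b*, *Lnpep* and *Stxbp5l*, picked with their values in view, with a median exon length of 11730.5 bases. A further 9 were low in controls 3 to 6, among them *Nefh*, *Cplx1* and *Nefl*, and 6 were low in controls 1, 2 and 4, namely *Bglap*, *Bglap2*, *Mmp9*, *Acp5*, *Panx3* and *Col22a1*.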
